A study of Mus musculus with 6 samples.

Results

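The tumour necrosis factor (TNF) superfamily ligands and receptors were followed in mouse CD8+ T cells cultured as Tc17 or Tc1. Members were the genes whose array symbol begins with Tnfrsf or Tnfsf, together with Tnf, Lta, Ltb, Fas, Fasl, Cd27, Cd40, Cd40lg, Cd70, Ltbr, Ngfr, Eda2r and Relt. This gave 42 of 22180 measured genes, 15 of them ligands and 27 receptors, and each member had 1 probe set with a single symbol. Naive CD8+ T cells from mouse spleen were stimulated with antibodies to CD3 (1 µg/ml) and CD28 (3 µg/ml) for 4 days in both groups. Tc17 cultures, an IL-17-producing state, received IL-6 and TGF-beta for 3 days, and Tc1 cultures, an interferon-gamma-producing state, received IL-12 for 3 days. Both then had IL-2 for 1 day. Each group had 2 samples labelled biological replicates and an array labelled technical rep2, so 3 arrays a group. The technical array was read as a repeat of the sample numbered 2, which the labels do not spell out. The labels do not say whether the samples came from separate animals or pools, so p-values measure the spread between these samples only. Strain, sex and age of the mice are not stated in the labels.

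The superfamily links cells that carry a ligand, mostly trimeric membrane proteins that proteases can release, to cells that carry the matching receptor. Receptors with a death domain can recruit FADD or TRADD and lead to caspase activation. Most others bind TRAF adaptors and feed NF-kB, where they act as costimulators or survival receptors of T cells, and decoy receptors bind ligand without a full signal. In CD8+ T cells FasL and TRAIL take part in killing, and TNF and LIGHT act as effector cytokines.

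Values are log2 RMA intensities, and a difference is Tc17 minus Tc1 on that scale. The 6 array medians ran from 6.04 to 6.09, and no array gives a detection call. A level under these medians is called dim below, and a fold against a dim group is a ratio of intensities, not of transcripts. Levels are compared between groups within a probe set, never between genes. CD8 and CD3 genes lay above the array medians in both groups: Cd8a averaged 12.78 in Tc17 and 12.91 in Tc1, Cd8b1 12.81 and 12.84, and Cd3e 13.05 and 12.92. None of 8 measured CD8 T cell markers passed the test, with 4 differences above 0 and 4 below. The largest were Cd5 (0.45) and Cd2 (0.44), each with all Tc17 arrays above all Tc1 arrays. The CD4 T cell markers Cd4 (6.99 in Tc17 and 7.05 in Tc1) and Zbtb7b (7.78 and 7.91) also lay above the medians. The part of CD4 T cells in the cultures was not tested. In bulk RNA fewer cells with a transcript and less of it per cell cannot be told apart.

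Of the 42 members, 7 passed the test. LIGHT (Tnfsf14), DR3 (Tnfrsf25), TACI (Tnfrsf13b), CD30 ligand (Tnfsf8) and the neighbouring receptor genes Tnfrsf23 and Tnfrsf26 rose in Tc17, and Fas ligand (Fasl) fell. That is 6 of 42 higher and 1 of 42 lower in limma's moderated test at an adjusted p of 0.05, where 0.992% of all genes were higher and 0.591% lower, 1.58% in all. Of the 6 called higher, Tnfsf8 lay at the array medians in Tc17 and under them in Tc1. A difference of at least 1 in either direction was found in 9 members, against 2.06% of all genes. The median difference was −0.01 over the members and −0.01 over all genes, so the family had no shared direction, and the median absolute difference was 0.20 over the members and 0.09 over all genes. The 3 Tc17 arrays lay entirely above the 3 Tc1 arrays in 11 members and entirely below in 10, against 29.7% of all genes in either direction. Both group means lay under the highest array median in 7 of 42 members and in 8766 of 22180 genes. The shares over all genes were not matched for level, so they do not show that the family differs from genes as bright. Leaving out 1 sample kept only some of these calls. Without Tc17 sample 1, Tc17 sample 2, Tc1 sample 1 or Tc1 sample 2 the test called 2, 3, 1 and 1 members higher and none lower, with all-gene calls also fewer in these smaller fits.

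**Figure D1:**
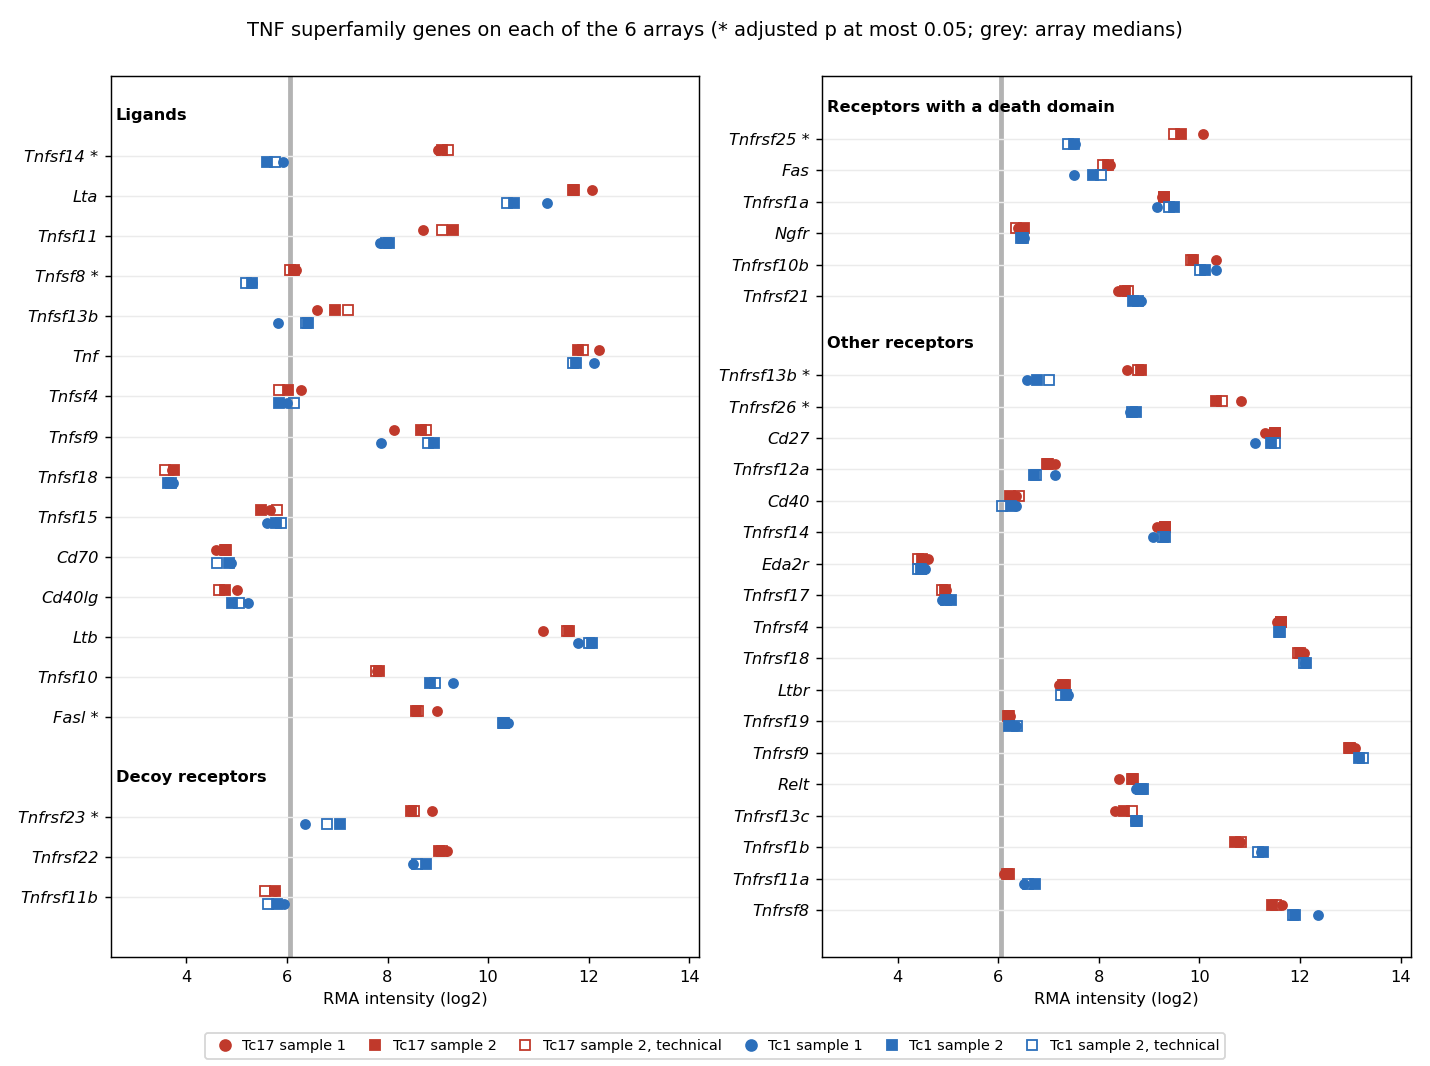
RMA intensity (log2, horizontal axis) of each of the 42 genes on the 6 arrays, Tc17 in red above Tc1 in blue; circles are sample 1, filled squares sample 2 and open squares its technical array. Tnfsf14 shows the widest separation, with Tc17 arrays from 9.01 to 9.20 and Tc1 arrays from 5.59 to 5.92 beside the grey band of array medians.

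**Figure D2:**
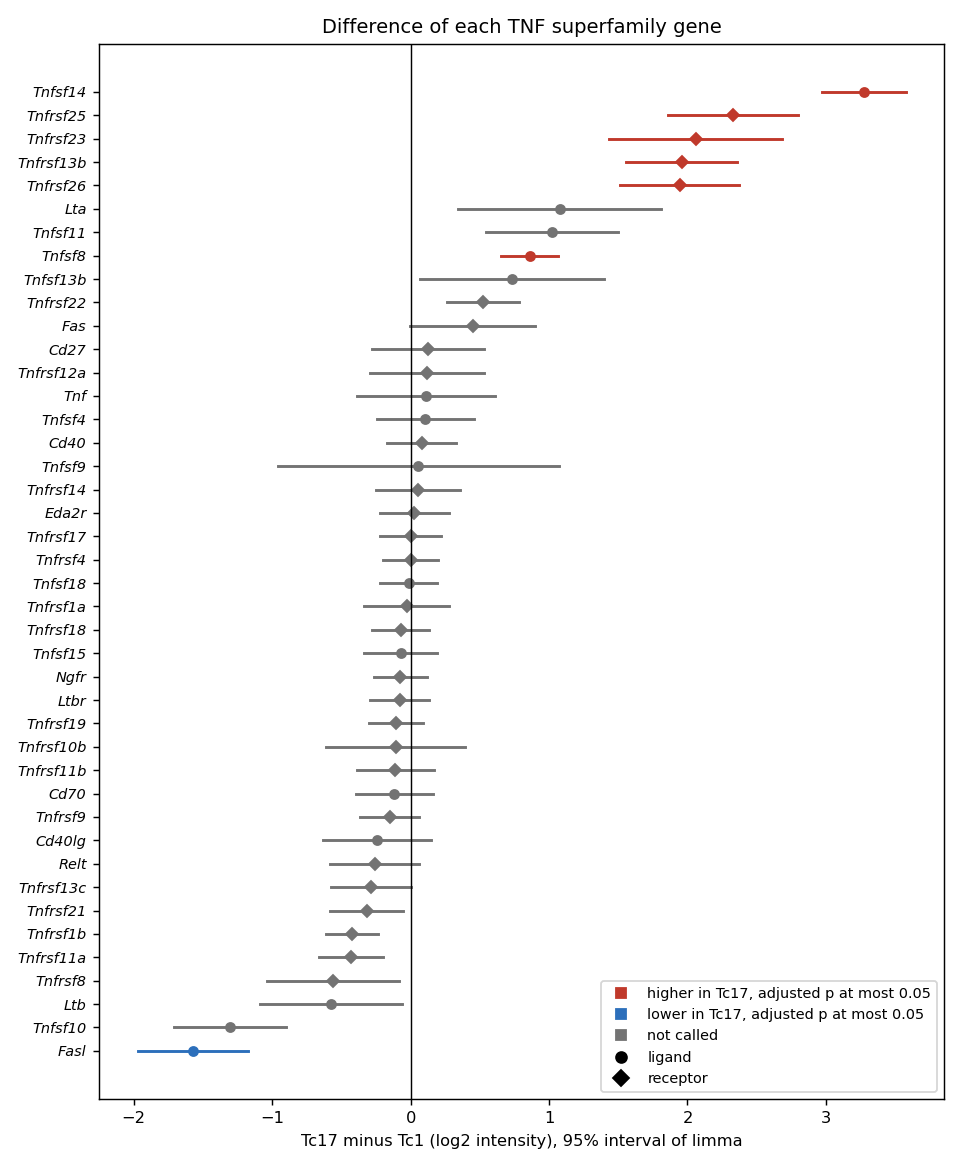
Difference of each member (Tc17 minus Tc1, log2 intensity) with its 95% interval from limma, not adjusted for the number of genes. Of the 42 genes, 6 are called higher (red) and 1 lower (blue); circles are ligands and diamonds receptors.

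Among the ligands, Tnfsf14 had the largest difference of all members. It encodes LIGHT, a ligand of HVEM and of the lymphotoxin beta receptor that costimulates T cells. Tnfsf14 (probe set 17346522) measured 9.01, 9.09 and 9.20 on the Tc17 arrays, against 5.92, 5.59 and 5.77 on the Tc1 arrays (here and below sample 1, sample 2 and its technical array). All 3 Tc17 arrays were high and all 3 Tc1 arrays lay under the array medians, with a gap of 3.08 between the groups. The means were 9.08 ± 0.10 in Tc17 and 5.80 ± 0.17 in Tc1 (SD, n = 2), a difference of 3.27 ± 0.12 (SE) and an intensity ratio of 9.68 (limma adjusted p = 0.00481). This was the one called member that passed with each of the 4 samples left out, at limma adjusted p from 0.0286 to 0.0351.

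Tnfsf8, which encodes the CD30 ligand, rose from a dim level. It measured 6.18, 6.13 and 6.06 on the Tc17 arrays and 5.31, 5.31 and 5.19 on the Tc1 arrays. Tc17 arrays sat at the array medians and Tc1 arrays under them, so signal above background is not shown in either group. The difference was 0.86 ± 0.08 (SE; limma adjusted p = 0.0285), and the call was lost without any 1 sample (0.123 to 0.178).

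Fasl fell in Tc17, and Tnfsf10 had lower values without passing. Fasl encodes Fas ligand, by which cytotoxic T cells kill cells that carry Fas. It measured 8.98, 8.56 and 8.61 on the Tc17 arrays, against 10.40, 10.31 and 10.30 on the Tc1 arrays. The groups were 1.32 apart, and the Tc1 arrays differed among themselves by far less. Fasl averaged 8.78 ± 0.28 in Tc17 and 10.35 ± 0.07 in Tc1 (SD, n = 2), so it was 2.98-fold lower (difference −1.57 ± 0.15 SE, limma adjusted p = 0.0328), with adjusted p of 0.0594 to 0.156 when 1 sample was left out. Tnfsf10, which encodes TRAIL, an apoptosis-inducing ligand, measured 7.80, 7.82 and 7.77 on the Tc17 arrays and 9.31, 8.85 and 8.93 on the Tc1 arrays. These groups did not overlap either. The Tnfsf10 difference of −1.30 ± 0.15 (SE) missed the threshold (limma adjusted p = 0.0517). It passed with median centring (0.0451) and with dim probe sets filtered out (0.0286), at nearly the same difference. It also passed with a replicate block (limma adjusted p = 0.0125), a pairing of same-numbered samples that the labels do not state. With 1 sample left out the Tnfsf10 difference ran from −1.51 to −1.095. Tnfsf10 did not pass with quantile normalization (0.0507), with trend and robust moderation (0.0575) or without the technical arrays (0.0667).

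The TNF and lymphotoxin genes, which lie side by side on chromosome 17 in the RefSeq order Ltb, Tnf, Lta, had differences of both signs, none of which passed. Lta encodes lymphotoxin alpha, which as a homotrimer binds the TNF receptors. Lta measured 12.07, 11.71 and 11.69 on the Tc17 arrays and 11.18, 10.51 and 10.37 on the Tc1 arrays. All Tc17 arrays were above all Tc1 arrays, and the 1.08 ± 0.28 (SE) between groups missed the threshold (limma adjusted p = 0.226). Tnf itself measured 12.20, 11.78 and 11.89 in Tc17 and 12.10, 11.74 and 11.68 in Tc1, and the groups overlapped. Its difference was 0.11 with a 95% interval of −0.39 to 0.61 (limma adjusted p = 0.866). Ltb, the membrane-anchoring chain that forms lymphotoxin with Lta, measured 11.09, 11.61 and 11.56 in Tc17 and 11.79, 12.07 and 12.00 in Tc1. The Ltb groups were 0.18 apart, with −0.57 between the means (limma adjusted p = 0.327, not called). Whether the 3 genes differ from one another in their response was not tested.

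Tnfsf11, which encodes RANKL, the osteoclast-inducing ligand, differed by 1.02 ± 0.18 (SE) without reaching the threshold (limma adjusted p = 0.118). Its values were 8.71, 9.30 and 9.08 on the Tc17 arrays and 7.85, 8.03 and 7.98 on the Tc1 arrays, with no overlap. Tnfsf13b, which encodes the B cell survival factor BAFF, measured 6.61, 6.96 and 7.21 in Tc17 and 5.83, 6.41 and 6.38 in Tc1. The Tc17 arrays were again above the Tc1 arrays, by 0.20, with samples 0.48 apart in Tc17 and 0.57 apart in Tc1 (difference 0.73, limma adjusted p = 0.337). Tnfsf9, the ligand of 4-1BB, varied more between samples than between groups: 8.13, 8.68 and 8.76 in Tc17 against 7.87, 8.92 and 8.81 in Tc1, a difference of 0.06 with an interval of −0.96 to 1.07. The remaining 5 ligands had differences between −0.24 (Cd40lg, the CD40 ligand) and 0.11 (Tnfsf4, the OX40 ligand). Cd40lg, Cd70 (the CD27 ligand), Tnfsf15 (TL1A, the DR3 ligand) and Tnfsf18 (the GITR ligand) were dim in both groups.

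Of 6 receptors with a death domain, Tnfrsf25 alone passed. It encodes DR3, which in T cells acts mainly as a costimulatory receptor for TL1A. Tnfrsf25 (probe set 17422092) measured 10.06, 9.64 and 9.50 on the Tc17 arrays and 7.52, 7.51 and 7.39 on the Tc1 arrays. The groups were 1.98 apart, and sample 1 was the highest in Tc17. The means were 9.82 ± 0.35 in Tc17 and 7.48 ± 0.05 in Tc1 (SD, n = 2), a 5.03-fold rise (difference 2.33 ± 0.18 SE, limma adjusted p = 0.0194). The call was lost without Tc1 sample 1 (0.117) or Tc1 sample 2 (0.116) and held without either Tc17 sample.

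The other death domain receptors had smaller differences. Fas, the receptor of Fas ligand, measured 8.22, 8.18 and 8.09 in Tc17 and 7.50, 7.89 and 8.03 in Tc1. The Fas arrays were 0.06 apart between groups, and the difference of 0.45 had an interval of −0.0016 to 0.90 (limma adjusted p = 0.378). Tnfrsf21, which encodes DR6, was at 8.37 to 8.58 on the Tc17 arrays and 8.67 to 8.84 on the Tc1 arrays (difference −0.32, limma adjusted p = 0.295). Tnfrsf10b, the mouse TRAIL death receptor, overlapped between groups at 10.32, 9.86 and 9.84 in Tc17 and 10.33, 10.12 and 10.01 in Tc1 (difference −0.11, interval −0.61 to 0.39). Tnfrsf1a, the first TNF receptor, measured 9.26, 9.29 and 9.29 in Tc17 and 9.16, 9.49 and 9.39 in Tc1, with overlap (difference −0.03, interval −0.33 to 0.28). Ngfr, the p75 neurotrophin receptor, had a difference of −0.07 (interval −0.26 to 0.12).

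A trio of neighbouring receptor genes on chromosome 7, Tnfrsf26, Tnfrsf22 and Tnfrsf23 in RefSeq order, had higher values in Tc17. Tnfrsf22 and Tnfrsf23 encode mouse decoy receptors for TRAIL, and Tnfrsf26 is their paralog. Tnfrsf23 measured 8.89, 8.48 and 8.54 on the Tc17 arrays and 6.35, 7.05 and 6.80 on the Tc1 arrays. The groups were 1.43 apart, and Tc1 sample 1 was the lowest array. Tnfrsf23 was 4.17-fold higher (difference 2.06 ± 0.24 SE, limma adjusted p = 0.0489). The Tnfrsf23 call was lost with quantile normalization (0.0561), without the technical arrays (0.0706) and without any 1 sample (0.0874 to 0.212).

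Tnfrsf26 measured 10.82, 10.33 and 10.44 in Tc17 and 8.62, 8.75 and 8.65 in Tc1. It was 3.85-fold higher (difference 1.94 ± 0.16 SE, limma adjusted p = 0.023). Its call held without Tc17 sample 2 (0.0337) and was lost without Tc17 sample 1 (0.0594), Tc1 sample 1 (0.135) or Tc1 sample 2 (0.121). Tnfrsf22, which lies between them, measured 9.17, 9.02 and 9.08 in Tc17 and 8.50, 8.76 and 8.58 in Tc1, and with a difference of 0.52 it was not called (limma adjusted p = 0.135). The paralogs are similar in sequence, and whether their probes detect each other's transcripts was not tested. The secreted decoy Tnfrsf11b, osteoprotegerin, was dim in both groups, at 5.76, 5.77 and 5.56 in Tc17 and 5.94, 5.81 and 5.62 in Tc1 (difference −0.11).

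Among the 18 other receptors Tnfrsf13b, as well as Tnfrsf26, passed. Tnfrsf13b encodes TACI, a receptor of BAFF and APRIL best known from B cells. It measured 8.57, 8.84 and 8.78 on the Tc17 arrays and 6.57, 6.78 and 7.01 on the Tc1 arrays. The groups were 1.56 apart, more than the samples differed in either group. The means were 8.69 ± 0.17 in Tc17 and 6.73 ± 0.23 in Tc1 (SD, n = 2), a 3.88-fold rise (difference 1.96 ± 0.15 SE, limma adjusted p = 0.0199), with adjusted p of 0.0684 to 0.09 when 1 sample was left out. Over the 5 measured B cell markers the mean level was 6.46 to 6.53 on the Tc17 arrays and 6.40 to 6.44 on the Tc1 arrays, with 0 of 5 called. Ms4a1 was dim at 4.21 in Tc17 and 4.26 in Tc1, as was Blk in both groups. Cd79a lay at the array medians and Pax5 at 6.35 in both. Cd79b was brighter, at 10.32 in Tc17 and 9.80 in Tc1, with arrays apart by 0.31 (difference 0.52, limma adjusted p = 0.162). The part of B cells in the TACI value was not tested.

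Of the costimulatory receptors of activated T cells, OX40, 4-1BB, GITR and CD27 had small differences, unlike DR3 above. Tnfrsf4, which encodes OX40, measured 11.55, 11.61 and 11.62 in Tc17 and 11.58, 11.60 and 11.59 in Tc1, with an interval of −0.20 to 0.19 for the difference. Tnfrsf9 (4-1BB) had a difference of −0.15 (interval −0.36 to 0.06), Tnfrsf18 (GITR) −0.07 (interval −0.28 to 0.14) and Cd27 0.12 (interval −0.28 to 0.53). These intervals leave room for a change of under 2-fold in either direction. None of these receptors passed, and the Tnfrsf9 arrays were apart by 0.07.

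Several receptors had negative differences with non-overlapping arrays but did not pass. Tnfrsf1b, the second TNF receptor, measured 10.82, 10.70 and 10.84 in Tc17 and 11.22, 11.26 and 11.16 in Tc1 (difference −0.42 ± 0.07 SE, limma adjusted p = 0.108). Tnfrsf8, which encodes CD30, measured 11.64, 11.45 and 11.52 in Tc17 and 12.37, 11.90 and 11.86 in Tc1 (difference −0.56, limma adjusted p = 0.307). Tnfrsf11a, which encodes RANK, measured 6.12, 6.21 and 6.17 in Tc17 and 6.52, 6.72 and 6.59 in Tc1 (difference −0.43, limma adjusted p = 0.151). The RANK values lay just above the array medians. Tnfrsf13c, the BAFF receptor, had a difference of −0.29 and the TRAF-binding receptor Relt −0.26, both with the 3 Tc17 arrays below the 3 Tc1 arrays. The remaining members of this group had differences between −0.10 (Tnfrsf19) and 0.12 (Tnfrsf12a, the TWEAK receptor), and Eda2r and Tnfrsf17 (BCMA) were dim in both groups.

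The promoters of 5 called genes are shown. Tnfsf14, Tnfrsf25, Tnfrsf23 and Tnfrsf13b had the largest differences among the ligands, death domain receptors, decoys and other receptors, and Fasl was the member called lower. Each window is the 250 bases before the RefSeq start site (GRCm38.p6), written along the gene's strand. Capitals mark matches on either strand to 1 of 5 motifs: TTCNNNGAA (STAT), the NF-kB consensus, AGGTGTGA (T-box), TGANTCA (AP-1) and CAGACA (SMAD).
Tnfsf14, chr17:57194182-57194431, minus strand: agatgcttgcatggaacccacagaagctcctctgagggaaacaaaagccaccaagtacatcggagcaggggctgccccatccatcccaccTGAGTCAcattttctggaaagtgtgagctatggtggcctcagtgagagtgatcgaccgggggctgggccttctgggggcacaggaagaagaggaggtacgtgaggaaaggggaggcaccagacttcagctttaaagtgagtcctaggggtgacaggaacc
Tnfrsf25, chr4:152115684-152115933, plus strand: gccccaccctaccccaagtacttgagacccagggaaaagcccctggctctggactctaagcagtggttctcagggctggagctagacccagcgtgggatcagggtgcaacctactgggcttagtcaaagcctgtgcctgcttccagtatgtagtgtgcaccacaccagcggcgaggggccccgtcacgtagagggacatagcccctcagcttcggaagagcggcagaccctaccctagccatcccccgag
Tnfrsf23, chr7:143685876-143686125, minus strand: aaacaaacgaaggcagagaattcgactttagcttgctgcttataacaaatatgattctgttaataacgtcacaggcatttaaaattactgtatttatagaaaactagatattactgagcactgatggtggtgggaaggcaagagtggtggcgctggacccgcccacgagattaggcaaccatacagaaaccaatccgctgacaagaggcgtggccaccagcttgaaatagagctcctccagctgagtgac
Tnfrsf13b, chr11:61126505-61126754, plus strand: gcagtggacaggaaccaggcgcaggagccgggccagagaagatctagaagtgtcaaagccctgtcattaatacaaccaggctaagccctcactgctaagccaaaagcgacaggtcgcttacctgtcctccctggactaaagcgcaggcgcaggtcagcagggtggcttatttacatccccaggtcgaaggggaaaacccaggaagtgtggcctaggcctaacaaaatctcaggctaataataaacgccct
Fasl, chr1:161788496-161788745, minus strand: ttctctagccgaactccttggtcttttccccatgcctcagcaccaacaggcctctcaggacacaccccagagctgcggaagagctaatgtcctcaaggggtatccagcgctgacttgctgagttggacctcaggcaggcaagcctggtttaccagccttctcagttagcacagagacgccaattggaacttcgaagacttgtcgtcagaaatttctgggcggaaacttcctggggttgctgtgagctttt
The Tnfsf14 window held 1 AP-1 match. No match to the 5 motifs was found in the windows shown for Tnfrsf25, Tnfrsf23, Tnfrsf13b and Fasl, and the window of the other Tnfrsf25 start site held the STAT and NF-kB letters.

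A RefSeq window was at hand for 33 of the 42 members, 4 of which had 2 start sites. Of these 37 windows, 8 held the STAT letters, 4 the NF-kB letters, 0 the T-box letters, 5 the AP-1 letters and 6 the SMAD letters. Over all 32851 windows of that length the shares were 7.02%, 7.25%, 1.12%, 6.75% and 17.1% in the same order. No matches of different motifs overlapped in the members. The members with NF-kB letters were Ltb, Tnfrsf8, Tnfrsf9 and Tnfrsf25, and Lta held the STAT letters at 2 places. The NF-kB consensus was chosen after another form, which overlaps it in part, had been searched and its matches seen. That first form was in 3 of the 37 windows, those of Ltb, Tnfrsf9 and the Tnfrsf25 start site shown above, and in 1.41% of all windows. A match describes letters only and is not a binding site.

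Ligands and receptors were then set side by side in 24 known pairs. In no pair did both partners pass: the ligand alone passed in 4 pairs, the receptor alone in 3 and neither in 17. Some genes, such as Tnfsf14 and Tnfsf10, stood in several pairs. With 12 of 15 ligands and 23 of 27 receptors not called, few pairs could have both partners called. Whether partners change together was not tested. Tnfsf14 rose by 3.27 while its receptors Tnfrsf14 (HVEM) and Ltbr had differences of 0.05 (interval −0.25 to 0.36) and −0.08 (interval −0.29 to 0.14). Tnfrsf14 arrays overlapped, at 9.15, 9.31 and 9.32 in Tc17 and 9.07, 9.31 and 9.27 in Tc1. Ltbr arrays overlapped too, at 7.21, 7.32 and 7.29 in Tc17 and 7.38, 7.35 and 7.25 in Tc1.

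For DR3 the receptor moved and the ligand gave no signal above the medians. Tnfrsf25 rose by 2.33, and Tnfsf15 measured 5.66, 5.48 and 5.80 in Tc17 and 5.61, 5.79 and 5.87 in Tc1. In the BAFF system Tnfrsf13b rose by 1.96, against differences of −0.29 for Tnfrsf13c and 0.00033 for the dim Tnfrsf17. The BAFF gene Tnfsf13b had 0.73 and was not called (limma adjusted p = 0.337). In the CD30 pair the ligand gene, at or under the array medians, rose by 0.86 and the receptor gene had a difference of −0.56. For Fas the ligand gene had −1.57 and the receptor gene 0.45, and for TRAIL the ligand gene had −1.30, the death receptor gene −0.11 and the decoy gene Tnfrsf23 2.06.

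**Figure D3:**
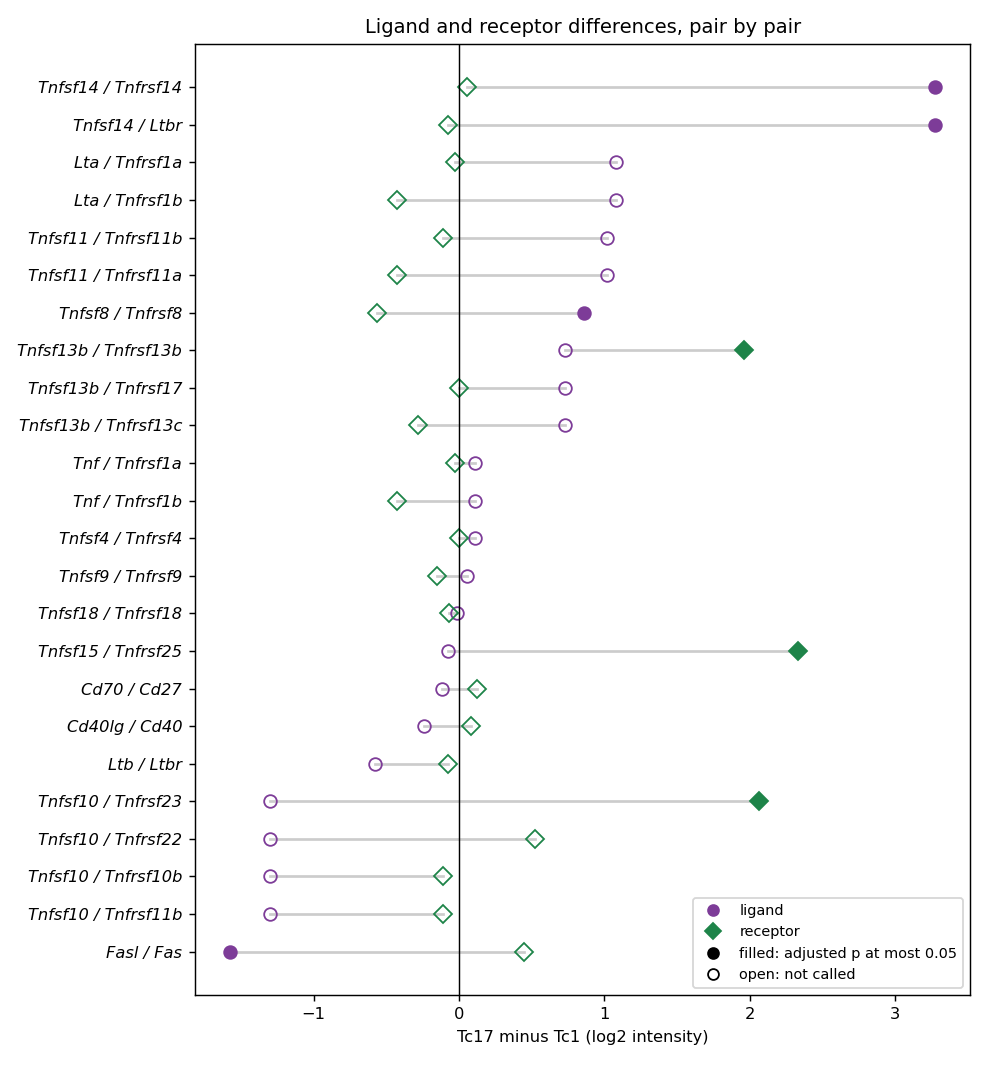
Difference (Tc17 minus Tc1, log2 intensity) of the ligand (circle) and the receptor (diamond) in each of the 24 pairs, filled where the limma adjusted p was at most 0.05. No row has both symbols filled, and the widest spans are between Tnfsf10 at −1.30 and Tnfrsf23 at 2.06 and between Tnfsf14 at 3.27 and its receptors near 0.

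Signalling genes downstream of the receptors were taken in 3 lists. Of 6 TRAF adaptors none passed, with a median difference of −0.12, and the largest was Traf6 at 0.80 (limma adjusted p = 0.145) followed by Traf1 at 0.35. Of 13 death receptor signalling genes none passed (median −0.08), and Bid, which links caspase-8 to mitochondria, and Birc2, an inhibitor of apoptosis, had the largest differences at −0.52 and 0.38. Of 21 NF-kB pathway genes none passed (median 0.12). Tnfaip3, the NF-kB feedback inhibitor A20, had 0.51 (limma adjusted p = 0.375) and Nfkbie, an inhibitor of NF-kB, 0.41. Over these 3 lists, unadjusted p under 0.05 was found for Traf6, Bid, Cradd, Ikbkb, Map3k7, Nfkbie, Tab1, Tnfaip3 and Tnip1, and 15.9% of all genes had such a p.

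Of 6 genes that process the ligands 1 fell. Rhbdf2 encodes iRhom2, the partner that brings the TNF-shedding protease ADAM17 to the cell surface. It averaged 8.99 ± 0.07 in Tc17 and 10.07 ± 0.06 in Tc1 (SD, n = 2; difference −1.08 ± 0.08 SE, limma adjusted p = 0.0199). Adam17 itself had −0.38 and Furin −0.38, and neither passed. Among 6 measured partners outside the member rule none passed. Edaradd, the adaptor of the ectodysplasin receptor, had −0.82 (limma adjusted p = 0.0851), and Btla and Cd160, which bind HVEM, had 0.40 and 0.24.

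**Figure D4:**
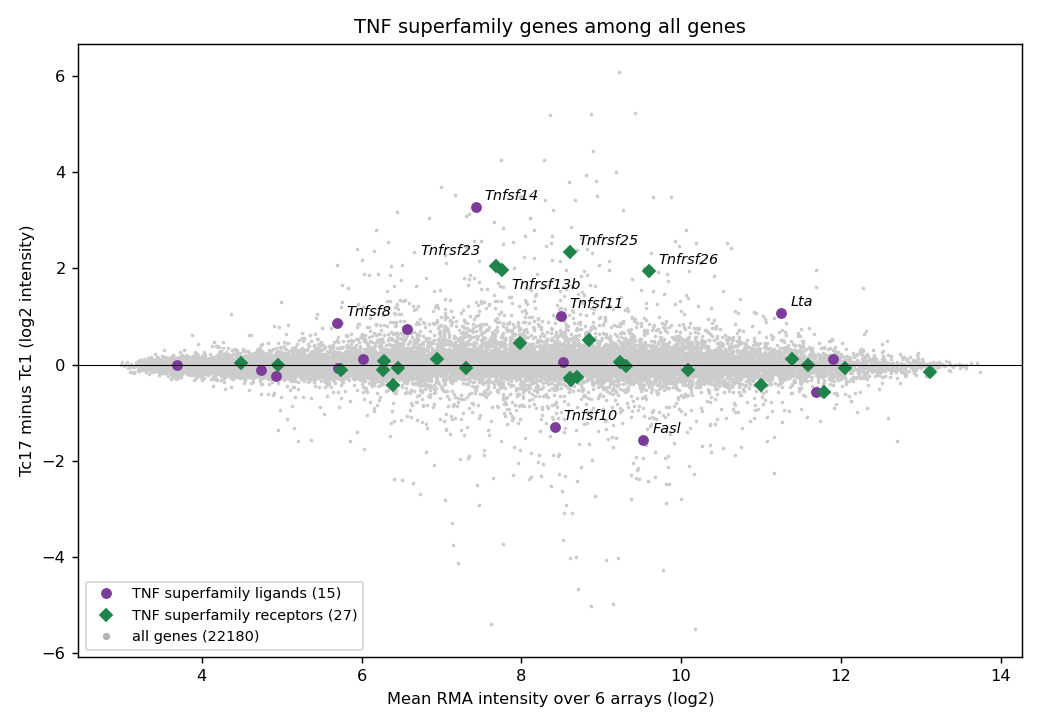
Difference (Tc17 minus Tc1, log2 intensity) against the mean RMA intensity over 6 arrays for all 22180 genes (grey), with the 15 ligands and 27 receptors marked. The labelled genes are those called or with an absolute difference of at least 1, and most other members lie inside the grey band around 0.

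Markers of other cell types were checked because some members are also made by B cells and myeloid cells. Of 6 macrophage and monocyte markers 1 was called higher, Lyz2, at 8.97 in Tc17 and 5.44 in Tc1, and the list's mean level was 6.76 to 6.92 on the Tc17 arrays and 6.07 to 6.25 on the Tc1 arrays. The median difference of the list was 0.27. Cd68 overlapped between groups at 9.85 in Tc17 and 9.99 in Tc1. Csf1r averaged 6.56 in Tc17 and 6.28 in Tc1, and Adgre1, Cd14 and Fcgr1 were dim in both groups. For Csf1r, Adgre1 (difference 0.38) and Cd14 (0.25) all Tc17 arrays lay above all Tc1 arrays, without a call. Fcgr1 overlapped. Of 4 neutrophil markers Ly6g was called higher (9.60 in Tc17 and 7.07 in Tc1), with S100a8, S100a9 and Elane dim in both. Pecam1 was called among 4 stromal and endothelial markers (10.60 in Tc17 and 9.83 in Tc1), and Cdh5 was dim. Col1a1 (7.11 in Tc17 and 7.15 in Tc1) and Pdgfrb (6.69 and 6.85) lay above the array medians in both groups, with overlapping arrays. No dendritic cell (5), NK cell (2), CD4 T cell (2) or B cell (5) marker passed. The part of such cells in the Tnfsf13b values was not tested.

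Read as repeats of sample 2, the technical arrays give the measuring error of the members. The array of sample 2 and its technical array differed by a median of 0.06 in Tc17 and 0.10 in Tc1, and by at most 0.32. The 2 samples of a group differed by a median of 0.15 in Tc17 and 0.17 in Tc1, and by at most 0.99 (Tnfsf9 in Tc1). In 21 of the 42 members the difference between groups was larger than the gap between samples in both groups, against 35.8% of all genes.

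**Figure D5:**
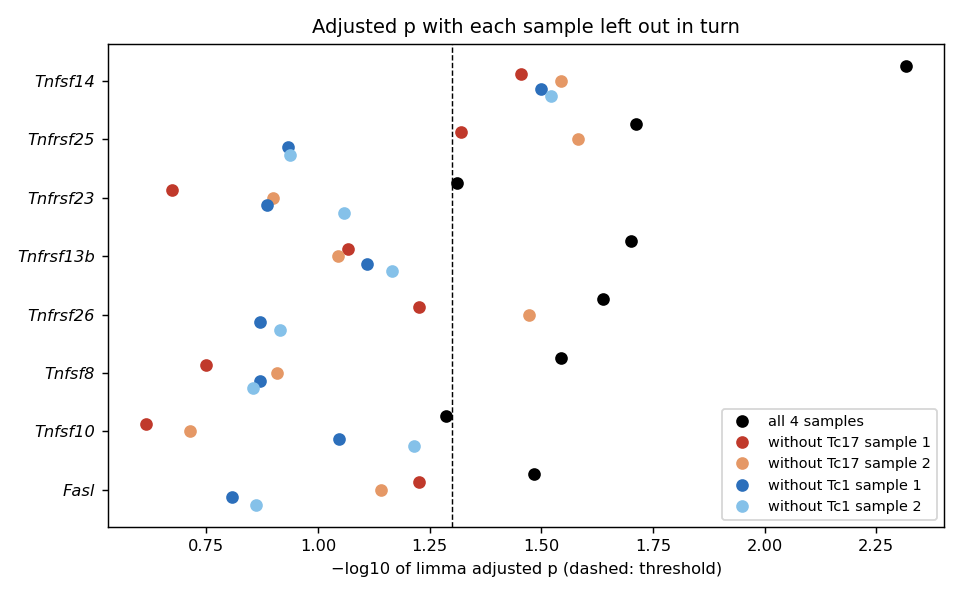
The −log10 of the limma adjusted p (horizontal axis, threshold dashed) for the 7 called genes and Tnfsf10, with all 4 samples (black) and with each sample left out. Tnfsf14 stays right of the threshold in all 5 fits, while Tnfrsf23, Tnfrsf13b, Tnfsf8 and Fasl fall left of it whenever 1 sample is left out.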

How the data were processed

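Total RNA was hybridised to 6 single-colour Affymetrix arrays. The deposited values are log2 intensities, and the submitters' processing notes name RMA and Partek as the authors' tools without versions or roles. RMA corrects background, quantile-normalizes arrays and summarizes probes. Build and annotation release are not stated.

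The technical array was averaged with its group's sample numbered 2, leaving 2 samples per group. All 41345 probe sets were fitted with limma 3.58.1 (R 4.3.3, lmFit and eBayes, 2 residual degrees of freedom plus 2.63 from moderation), with Benjamini-Hochberg adjustment at 0.05. Replicates are few, which limits precision. The platform annotation named the probe sets (23521 with 1 symbol, 1814 with several, 16010 with none), and a gene was its brightest single-symbol probe set. All 42 members matched RefSeq (GRCm38.p6) by Entrez identifier. Tested on simulated data for Tc17 against Tc1 (41345 probe sets), the fit recovered 88% of changes of 1 and 98% of changes of 2 on the log2 scale. It also called 12 unchanged probe sets. The simulated noise was normal and independent between samples, with the moderated SDs of the fit. Moderation draws the SDs of probe sets towards a common value, and the simulation held no shift shared by same-numbered samples. The recovered shares therefore need not hold for the real arrays.

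Array values are given for members called, differing by at least 1, or paired with such a member; for the pathway lists, called genes and the 2 largest others. Marker lists have counts, levels and examples. Members, lists and motifs were chosen with earlier results of these data known, and the NF-kB letters were replaced after a first search. Figures used matplotlib 3.10.9.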

Additional observations from a re-analysis of the deposited data

How the results depend on the processing

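Each member had 1 probe set, so averaging probe sets altered nothing. The counts of members called, 6 higher and 1 lower, were 9 and 4 with 6 separate arrays (1364 and 954 probe sets of all, against 263 and 155), which treats repeats of a sample as samples. The labels give both groups the numbers 1 and 2 without saying that a number marks a shared animal or day, and deviations of same-numbered samples correlated at 0.31 over probe sets. The replicate block gave 9 members higher and 2 lower (932 and 603 probe sets) and added Lta (adjusted p = 0.0167), Tnfsf11 (0.0170), Tnfsf13b (0.0197) and Tnfsf10 (0.0125). With median centring 2 members were lower, and with dim probe sets filtered out 5 higher and 2 lower (394 and 253 probe sets), Tnfsf8 being filtered out. Trend and robust moderation altered no member's call, and quantile normalization or leaving out the technical arrays lost Tnfrsf23. With 1 sample left out, 1 to 3 members were higher and 0 to 0 lower (29 to 84 and 19 to 52 probe sets); a lone sample is then assumed to vary like the other group.

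The first form of the NF-kB letters, an alternative chosen after seeing the data, were in 3 member windows, against 4 with the consensus. No called difference turned its sign under any setting run. Uncalled differences near 0 did: without the technical arrays Cd40 (−0.014), Tnfrsf17 (−0.0074) and Tnfsf18 (0.043), with 6 separate arrays Tnfsf9 (−0.011), Tnfrsf17 (−0.029) and Tnfrsf4 (0.0080), with quantile normalization Tnfrsf4 (0.014) and Tnfsf18 (0.0012), and with median centring Tnfrsf4 (0.0013). With 1 sample left out the differences ran for Cd27 from −0.063 to 0.31, Tnfrsf12a from −0.081 to 0.32, Tnf from −0.086 to 0.31, Tnfsf4 from −0.064 to 0.28, Cd40 from −0.013 to 0.17, Tnfsf9 from −0.44 to 0.55, Tnfrsf14 from −0.056 to 0.17, Eda2r from −0.050 to 0.10, Tnfrsf17 from −0.066 to 0.066, Tnfrsf4 from −0.034 to 0.033, Tnfsf18 from −0.056 to 0.026, Tnfrsf1a from −0.17 to 0.11, Tnfsf15 from −0.18 to 0.037 and Tnfrsf10b from −0.34 to 0.13. The cause was not tested. Signal over background limits the dim members.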

Other observations

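Probe sets with several symbols were not members. The one shared by Tnfsf12 (TWEAK), Tnfsf13 (APRIL) and their read-through Tnfsfm13 was dim, at 5.42, 5.38 and 5.53 on the Tc17 arrays and 5.51, 5.51 and 5.30 on the Tc1 arrays (difference −0.02, limma adjusted p = 0.956). A probe set shared by Tnfrsf18 and Gm16008 had a difference of −0.36 (limma adjusted p = 0.212), against −0.07 for the member probe set of Tnfrsf18.

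Some members differed between the samples numbered 1 and 2 in the same direction in both groups. Tnfsf9 was 0.59 lower in sample 1 than in sample 2 in Tc17 and 0.99 lower in Tc1, and Tnfsf13b was 0.48 and 0.57 lower. Tnf was 0.36 and 0.39 higher in sample 1, and Lta 0.37 and 0.73 higher. The sign of this gap was shared by both groups in 30 of 42 members and in 13337 of 22180 genes. Among the 153 genes whose samples were at least 0.5 apart in both groups it was shared in 151.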
